A study of Rattus rattus with 8 samples.

Results

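Neural injury marker genes are 9 of the 26997 genes and transcripts, counted by accession or name, that had a probe on a rat array hybridized with RNA from whisker hair follicles. They were listed by accession as Gfap (NM_017009), Eno2 (NM_139325), Uchl1 (NM_017237), Nefl (NM_031783), Mapt (NM_017212), App (NM_019288), Bdnf (NM_012513), Ngfr (NM_012610) and Gap43 (NM_017195), and the probes were those that the arrays name by one of these accessions. All 9 genes had a probe, and together they had 10 of the 30367 probes, since Mapt had 2 and each of the other 8 genes had 1. The study asked whether the follicle, which can be sampled without surgery, changes its transcripts after a simulated blast to the head. The sham control group held 3 rats, C1, C2 and C3, and the blast group 5 rats, with 1 array per rat and several follicles of a rat pooled. All were adult male Sprague-Dawley rats, labelled Rattus rattus in the deposit and Rattus norvegicus in the study's paper. Rats were anaesthetized with isoflurane, and the paper compares blast and sham control rats on the time they took to revive from it. Blast rats had the head placed in a shock tube for a single shock wave, and sham control rats were given 0 kPa. The labels give 145 kPa (21.03 psi) for M2 and M3, 175 kPa (25.4 psi) for H1 and 200 kPa (29 psi) for XH1 and XH3. The rats were observed for a day or for a week before the follicles were pulled, and which rat had which period is not known, so that pressure and time cannot be told apart.

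Injured neurons and glia release proteins that are measured in blood and spinal fluid as signs of brain injury, among them the astrocyte filament protein GFAP, the neuronal enzymes NSE (from Eno2) and UCH-L1, neurofilament light chain (from Nefl) and tau (from Mapt). A whisker follicle is a densely innervated sense organ, but the cell bodies of its sensory neurons lie in the trigeminal ganglion. Transcripts in a pulled follicle may thus come largely from cells other than neurons, and its cell composition was not tested here. Several of the genes are also active outside the nervous system.

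The first question was which of the genes could be measured in follicles at all. The array software calls a spot well above background when its signal clearly exceeds the local background, and a probe was counted so on an array when most of its spots were. By this rule 5 genes (Eno2, Uchl1, Mapt, App and Ngfr) were well above background on all 8 arrays, and 1 gene, Gfap, was so on 6. The other 3 genes, Nefl, Bdnf and Gap43, were well above background on 0 of 8 arrays. Over the whole array, 16873 of the 30367 probes were well above background on all 8 arrays, a share close to that of 5 of 9 genes. Among proteins of the axon, neurofilament light chain and GAP-43 thus had no transcript well above background, whereas tau had one in every rat. No spot of the 10 probes was saturated.

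Gfap encodes the intermediate filament of astrocytes and is also found in non-myelinating Schwann cells. Its log2 intensity was 4.41 in C1, 4.72 in C2 and 5.14 in C3, and in the blast rats it was 4.31 in M2, 4.87 in M3, 4.77 in H1, 5.09 in XH1 and 5.12 in XH3. The groups overlapped almost completely, with M2 the lowest rat and C3 the highest, and the probe was not well above background in C2 and M3. The difference of blast from sham was a log2 fold change of 0.07 with a 95% confidence interval from -0.49 to 0.63 (two-sided exact permutation p = 0.821). Its sign turned with slide row as a blocking term, at -0.07, and without C1, at -0.10. In bulk follicles, fewer cells of a type and less RNA per cell cannot be told apart, here and for every gene that follows.

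Eno2 encodes the enolase of neurons, a glycolytic enzyme also made by neuroendocrine cells. Its log2 intensity was 7.99 in C1, 9.37 in C2 and 9.05 in C3, against 8.02 in M2, 9.44 in M3, 9.15 in H1, 8.72 in XH1 and 9.05 in XH3. The rats fell into the same range in both groups, with C1 and M2 the lowest, at about the same level, and the remaining rats between 8.72 and 9.44. The log2 fold change was 0.07 (standard error 0.41), with a 95% confidence interval from -0.88 to 1.03 and a two-sided exact permutation p of 0.804. Without C1 the value was -0.33, and without M3 it was -0.07, so that its direction rested on single rats.

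Uchl1 encodes a deubiquitinating enzyme of neurons and neuroendocrine cells. Its log2 intensity was 12.44 in C1, 8.31 in C2 and 10.51 in C3, and 10.10 in M2, 8.91 in M3, 11.53 in H1, 7.77 in XH1 and 7.48 in XH3. No other of the 9 genes varied as widely among the rats: C1 was 31.1-fold above XH3, high and low rats occurred in both groups, and the 2 rats at 200 kPa were the lowest of the 8. The pooled SD within groups was 1.82 on the log2 scale, above that of 99.5% of the 16873 probes measured above background in all rats, whose median was 0.39. The spots themselves repeated closely, with a median SD between the 2 spots of an array of 0.06. Among 4 other ways of processing, C1 stayed the highest and XH3 the lowest rat, at between 22.6-fold and 31.0-fold apart.

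Against this spread the group difference in Uchl1 was small. The sham mean was 10.42 ± 2.06 (SD, n = 3) and the blast mean 9.16 ± 1.68 (SD, n = 5). Their difference, a log2 fold change of -1.26, had a 95% confidence interval from -4.06 to 1.54, which covers a large fall as well as a rise (two-sided exact permutation p = 0.375). It was -0.25 without C1 and -2.32 without C2. Between the rows of the slide the difference had opposite signs, at 0.44 in row 1 (2 sham control and 2 blast rats) and -2.46 in row 2 (1 sham control and 3 blast rats, among them both at 200 kPa).

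Mapt encodes tau, which binds microtubules in axons. The brighter of its 2 probes had a log2 intensity of 8.67 in C1, 7.15 in C2 and 6.92 in C3, and 6.32 in M2, 6.28 in M3, 7.33 in H1, 7.15 in XH1 and 6.65 in XH3. C1 stood above all other rats, 3 of the 5 blast rats (M2, M3 and XH3) lay below all sham control rats, and H1 and XH1 lay between C3 and C1. The log2 fold change was -0.83 (standard error 0.45), with a 95% confidence interval from -1.89 to 0.22 and a two-sided exact permutation p of 0.143, and without C1 it was -0.29. The dimmer probe read 8.04, 6.18 and 5.51 in C1, C2 and C3, and 5.91, 4.21, 6.60, 6.19 and 4.75 in M2, M3, H1, XH1 and XH3. It was again highest in C1, was not well above background in M3 and XH3, and had 2 blast rats below all sham control rats. Its log2 fold change was -1.04, with a 95% confidence interval from -2.78 to 0.69 (two-sided exact permutation p = 0.268). The values in M3 and XH3 that lie lowest are the ones near background, so that the size of this fold change is uncertain. The difference was larger than the pooled SD within groups in the brighter probe (0.67) and smaller in the dimmer one (1.12), and both confidence intervals include 0.

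App encodes the amyloid precursor protein, a membrane protein made by keratinocytes as well as by neurons, which accumulates in injured axons. Its log2 intensity was 12.93 in C1, 12.80 in C2 and 12.31 in C3, and 12.25 in M2, 11.87 in M3, 12.84 in H1, 12.46 in XH1 and 12.18 in XH3. The blast rats M2, M3 and XH3 were again below all sham control rats, while H1 and XH1 lay within their range. App was the steadiest of the 5 genes measured on every array, with a pooled SD of 0.35. Its log2 fold change was -0.36 (standard error 0.24), with a 95% confidence interval from -0.93 to 0.21 (two-sided exact permutation p = 0.214). The interval in linear terms runs from 0.523 to 1.15 times the sham level. Leaving out single rats gave values between -0.55 (without C3) and -0.24 (without C1).

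Ngfr encodes the low-affinity neurotrophin receptor, which is carried by Schwann cells and by cells of the follicle's epithelium and mesenchyme. Its log2 intensity was 7.13 in C1, 7.29 in C2 and 7.17 in C3, against 6.93 in M2, 8.03 in M3, 7.48 in H1, 5.85 in XH1 and 6.95 in XH3. The sham control rats lay close together, and the blast rats lay on both sides of them, 2 above and 3 below. The SD among sham rats was 0.08 (n = 3) and among blast rats 0.81 (n = 5), a difference in spread that was not tested. Between spots of one array the median SD was 0.11. The means differed by a log2 fold change of -0.15, with a 95% confidence interval from -1.18 to 0.89 (two-sided exact permutation p = 0.732), and without XH1 the value was 0.15.

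**Figure D1:**
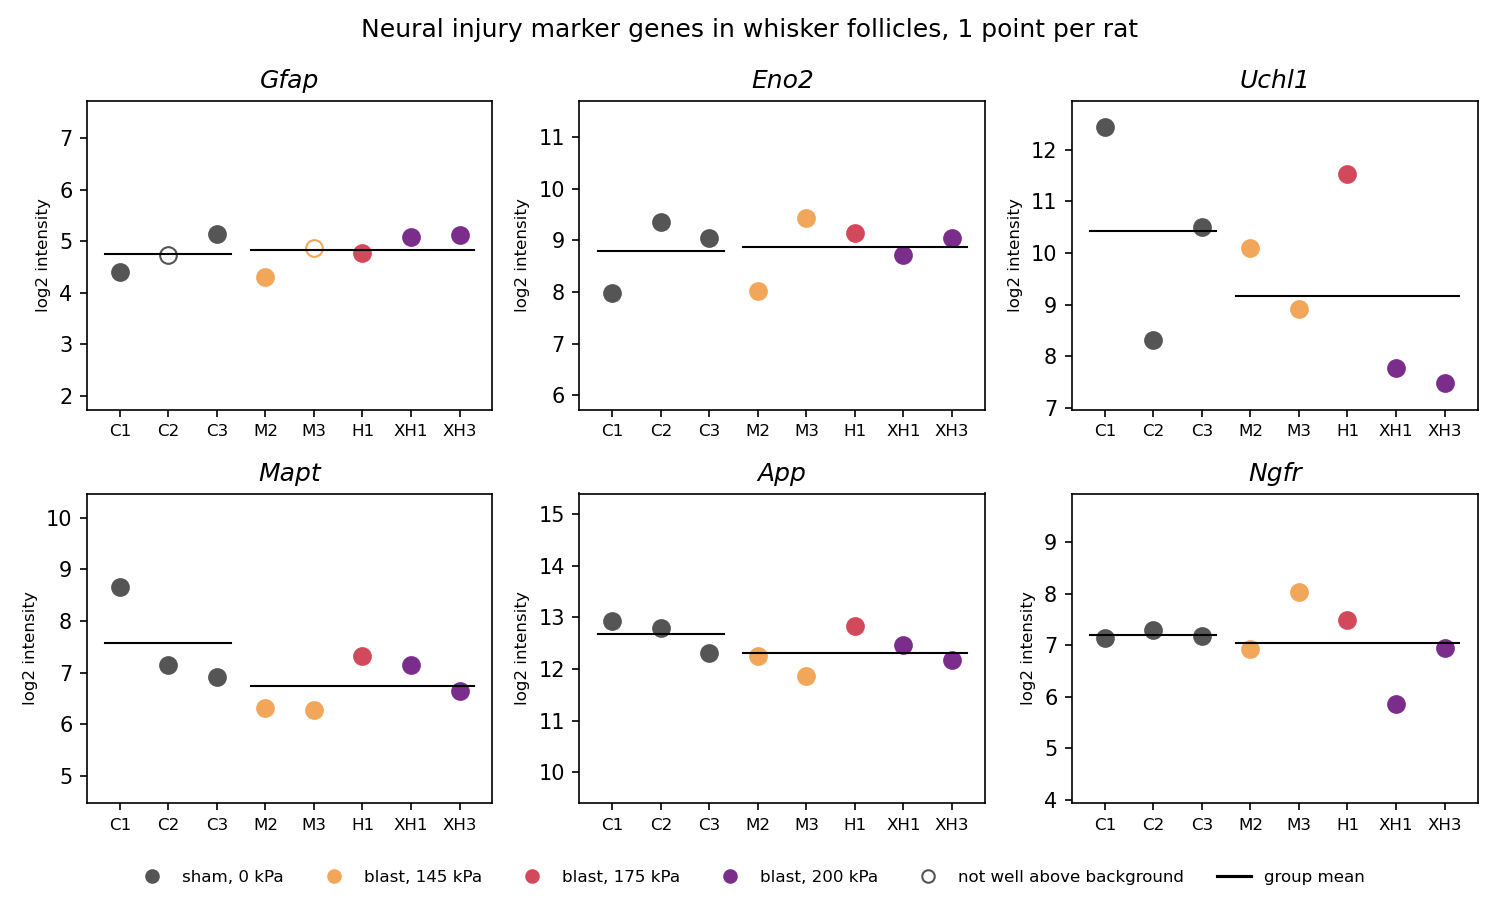
Log2 intensity (vertical axes) of the 6 genes well above background on 6 or 8 arrays, in each of the 8 rats (horizontal axes). Each panel has its own vertical range, of equal height. There is 1 point per rat, coloured by pressure, and a line at each group's mean. Open points mark rats where the probe was not well above background. Uchl1 spreads from 7.48 to 12.44 over both groups, while the sham control rats lie between 7.13 and 7.29 in Ngfr.

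The other 3 genes gave only bounds. Nefl, the light chain of the axonal neurofilament, read between 2.33 and 3.55 on the log2 scale over the 8 rats. Bdnf, a neurotrophin, read between 2.16 and 2.75. Gap43, a protein of growing axons, read between 2.21 and 4.01. Each of these probes was not well above background in either group, so that no fold change is given for them.

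Some single spots were far from the other spots of the same probe, and the software marked them as outliers. On the array of H1, 1 of the 2 spots of Nefl had a signal of 2216 and the other a signal of 13.0. The bright spot was left out here, and with it kept the log2 intensity of Nefl in H1 would be 7.40 in place of 3.55, the highest of the 8 rats by far. In Gfap, 1 of the 10 spots in M2 had a signal of 336 against a median of 22.2 for the others. With marked spots kept, the log2 intensity of Gfap in M2 would be 4.68 in place of 4.31, and C1, at 4.41, would be the lowest rat. The deposited log2 table holds these spots as they are, at 11.10 for the bright Nefl spot and 3.46 for its neighbour. In all, 8 spots of the member probes were marked.

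The comparison of blast with sham over all probes was fitted with limma. Of the 30366 probes tested, 850 or 2.8% had an unadjusted p under 0.05, and 0 of the 10 member probes did, the lowest unadjusted limma p being that of the brighter Mapt probe. After Benjamini-Hochberg adjustment 0 probes, or 0%, had an adjusted p under 0.05 in limma, and 0 of the 10 member probes did. Each member probe had an adjusted p of 0.9999 in limma. Blast and sham rats did not overlap in 605 of the 30217 probes with a value in every rat, or 2%, and overlapped in all 10 member probes, so that 0 of 10 were without overlap. With so few members, a count of 0 is close to what these shares of the whole array would give. The smallest p that 56 splits of the rats allow is 0.0179, and the lowest among the member probes was 0.143. The intervals are wide, and a p above the threshold does not show that the levels were equal.

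**Figure D2:**
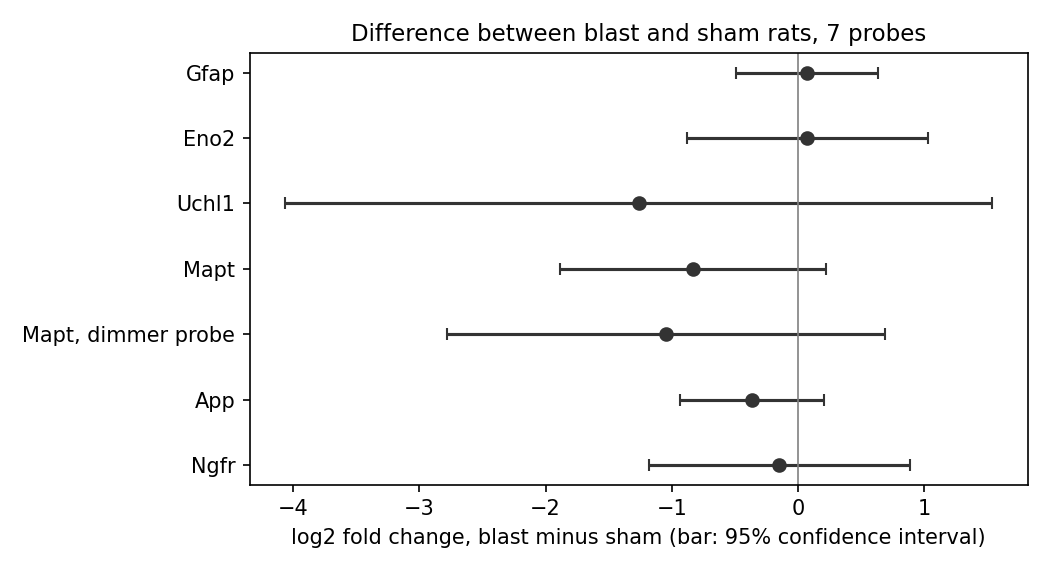
Log2 fold change of blast (n = 5) minus sham control rats (n = 3) on the horizontal axis, as points. Shown are the 7 member probes well above background on 6 or 8 arrays, with bars for the 95% confidence interval from limma. Each interval includes 0, from -0.49 to 0.63 in Gfap to -4.06 to 1.54 in Uchl1.

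Of the 5 genes measured on every array, 4 had a mean that was lower in blast rats and 1 a mean that was higher. Their median log2 fold change was -0.36, beside -0.01 for the 16873 probes measured above background in all rats, of which 51.6% had a negative value. The negative value of Mapt was larger than the pooled SD within groups, that of App was about as large as it, those of Uchl1 and Ngfr were smaller, and the confidence interval of each of the 4 includes 0. C1 bore on several of them at once: it was the highest of the 8 rats in Uchl1, in both probes of Mapt and in App (where H1 was the highest with scaling to the 75th percentile), and the lowest in Eno2. The array of C1 was also the brightest before normalization, with a median signal of 280.5 against between 90.9 and 179.9 on the other 7 arrays. The part of this brightness in the members' values was not tested. Blocking on slide row gave log2 fold changes of -0.72 in Mapt, -0.25 in App, -0.80 in Uchl1, -0.10 in Ngfr and -0.04 in Eno2. Within rows 1 and 2 they were -1.09 and -0.22 in Mapt, -0.32 and -0.15 in App, 0.00 and -0.23 in Ngfr, -0.09 and 0.02 in Eno2, and -0.03 and -0.12 in Gfap.

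The next question was whether the genes moved with pressure among the 5 blast rats. In limma, 860 of 30236 probes, or 2.84%, had an unadjusted p under 0.05 for a trend with pressure, and 0 of the 10 member probes did. After adjustment the count was 0 of all probes, or 0%, and 0 of the 10 member probes. The slope per 10 kPa on the log2 scale was 0.09 in Gfap, 0.03 in Eno2, -0.32 in Uchl1, 0.11 in the brighter probe of Mapt, 0.05 in App and -0.19 in Ngfr. The rats at 200 kPa were the lowest in Uchl1 and the highest blast rats in Gfap, but only 2 rats had this pressure and 1 rat had 175 kPa. Both rats at 200 kPa and M3 were in row 2 of the slide, and M2 and H1 in row 1. The part of slide row in the slopes was not tested. Without M3, Gfap had an unadjusted limma p under 0.05, and without H1, Uchl1 and Nefl did. The count of member probes was thus 1 and 2 in these fits, while Nefl was not well above background on any array. Over all probes the counts in these fits were also higher, at 1297 without M3 and 1278 without H1, beside 860 with all 5 blast rats. The count was 4744 without M2, 508 without XH3 and 408 without XH1, with 0 member probes in each of these fits. The slope of Uchl1 ranged from -0.52 to -0.19 as single blast rats were left out, and that of Ngfr from -0.31 to -0.09. With all 8 rats, sham at 0 kPa, they were -0.09 and -0.02. The slopes of Eno2 and App did not keep their sign as single blast rats were left out. Eno2 was at -0.10 without M2 and App at -0.00112 without M3. That of Mapt kept its sign in these fits, at 0.09 to 0.18. With all 8 rats, where the difference of blast from sham enters the slope, Mapt was at -0.04 and App at -0.02.

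Pea15a and Hbb were set beside the list as genes that the study measured by another method, both chosen by it on these arrays. Pea15a encodes a phosphoprotein enriched in astrocytes, and its log2 intensity was 5.31 in C1, 4.38 in C2 and 4.82 in C3, and 5.59 in M2, 5.82 in M3, 5.41 in H1, 5.63 in XH1 and 5.77 in XH3. The lowest blast rat exceeded the highest sham rat, and groups without overlap occurred in 605 of 30217 probes, or 2%. Its two-sided exact permutation p was 0.0179, the smallest that the 56 splits allow. The Pea15a probe was not well above background in C2, the lowest rat, and its adjusted p was 0.9999 in limma. Hbb encodes the beta chain of hemoglobin in red blood cells, and the brighter of its 2 probes read 10.21, 13.96 and 11.64 in C1, C2 and C3, then 17.42, 13.34, 15.37, 13.31 and 14.43 in M2, M3, H1, XH1 and XH3. The mean of both Hbb probes was higher in blast rats, with log2 fold changes of 2.84 in the brighter probe, where 3 of the 5 blast rats exceeded each sham rat (two-sided exact permutation p = 0.0893), and 3.46 in the dimmer one (two-sided exact permutation p = 0.0357), where 4 of the 5 blast rats exceeded each sham rat. Both Hbb probes had an unadjusted limma p under 0.05 and neither had an adjusted one under it, and C1 was the lowest rat in both. The part of blood in the members' values was not tested.

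Other probes followed the members over the 8 rats, as a description of these 8 arrays and without a test. Among 16872 probes of other accessions measured above background in all rats, the one most like Uchl1 was that of NM_001101680 (Pearson r = 0.962, n = 8 rats). It read 10.40, 6.18 and 9.38 in C1, C2 and C3, and 9.57, 7.14, 10.05, 6.32 and 5.30 in M2, M3, H1, XH1 and XH3, so that C1 and H1 were its highest rats and XH3 its lowest, as in Uchl1. Eno2 was most like XM_218458 (r = 0.997), Mapt was most like NM_147206 (r = 0.980), App was most like NM_001107424 (r = 0.992) and Ngfr was most like NM_001191701 (r = 0.986). The number of probes with r over 0.95 was 103 for Eno2, 48 for App, 23 for Mapt, 20 for Ngfr and 2 for Uchl1. With 8 rats and this many candidates, high values of r arise in any list, and no gene names were paired with these accessions here.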

How the data were processed

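The authors obtained the intensity of each spot with Agilent Feature Extraction (10.7.1.1 per the file headers), which subtracts background within an array. A log2 table, which they had quantile normalized, was deposited too. Here, intensities of control spots and of marked outlier spots were dropped, each probe's remaining spots were averaged as log2 values, arrays were quantile normalized on the linear scale, and 3 served as the lower limit of intensity. Groups follow the labels. Blast was compared with sham with limma 3.58.1 (lmFit, eBayes) in R 4.3.3, with Benjamini-Hochberg adjustment over 30366 probes, and single probes also by exact permutation (two-sided, 56 splits of the rats). The trend used probes with values in all 5 blast rats. The linear scale and this filter follow an earlier processing of the same files and were kept after the other versions had also been run. Methods were tested on simulated data. Members and lists were chosen with earlier results of these data known. All members are named, and the brightest probe stands for a gene.

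The 8 rats are separate animals on 1 slide, and their number limits the precision. The gene table used here, of the Rattus rattus assembly Rrattus_CSIRO_v1, matched 0 probe accessions. Member symbols came with the list, and those of Pea15a and Hbb from the study's primers. Lists of cell type markers, which would check the tissue, and probe sequences were not analysed here. Normexp on the mean signal was replaced by the median signal.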

Additional observations from a re-analysis of the deposited data

How the results depend on the processing

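Alternatives added after seeing the data were normexp on the median signal (in place of the planned mean signal, which was not run), differences within slide rows, quantile normalization on the log2 scale, array quality weights, and for the trend probes with at least 4 values. Over 19 alternatives, 0 member probes had an adjusted p under 0.05 in limma or in the methods' analysis of variance. At an unadjusted p the count was 0 of 10 (0 of 7 with the filter on dim probes, which leaves out Nefl, Bdnf and Gap43) except when the title number was a replicate block, where both Mapt probes (2) passed. Whether these numbers pair the rats is not known. The correlations of same-numbered deviations were 0.26, -0.58 and 0.25, and 2 of 5 blast rats were most like the sham rat of their number. These few values have no reference for unpaired rats and cannot decide it. The block left the count over all probes at 850 and the adjusted count at 0.

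The log2 fold changes of Mapt (-1.16 to -0.22) and App (-0.55 to -0.15) kept their sign in every alternative. The Mapt probe used here was chosen as the brighter one, and it also has the lower unadjusted limma p. Gfap turned to -0.0658 and Eno2 to -0.0445 with the slide row as a block, to -0.0470 and -0.157 with array quality weights, and to -0.0272 and -0.0907 within row 1. Gfap was -0.12 within row 2, and Uchl1 was 0.44 within row 1. With each rat left out in turn, Gfap ranged from -0.10 to 0.26, Eno2 from -0.33 to 0.36, Uchl1 from -2.32 to -0.25 and Ngfr from -0.39 to 0.15. With all 8 rats the slopes of Mapt and App turned to -0.0399 and -0.0174, and those of Uchl1, Ngfr and Eno2 were -0.0857, -0.0180 and 0.00557. With array quality weights the slopes were -0.460 in Uchl1, -0.162 in Ngfr, 0.0423 in Mapt, 0.00775 in App and 0.00564 in Eno2. Left-out blast rats gave slopes from -0.10 to 0.14 in Eno2, from -0.00112 to 0.10 in App, from -0.52 to -0.19 in Uchl1, from -0.31 to -0.09 in Ngfr and from 0.09 to 0.18 in Mapt.

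Over all probes, the count of 850 was 412 with the filter on dim probes, which tests fewer probes, and 1671 with array quality weights. Leaving out single rats gave from 657 (C1 out) to 1649 (H1 out), and the adjusted count from 0 to 3 (2 without C1, 3 without C3). With array quality weights the trend count of 860 became 1817, with 1 member probe (Nefl, not well above background on any array). When single blast rats were left out, the trend count lay between 408 (XH1 out) and 4744 (M2 out), with 0 to 2 member probes. It was 1297 without M3, 1278 without H1 and 508 without XH3. Their cause was not tested.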
